A study of Arabidopsis thaliana with 251 samples.

Results

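The 8 genes described here encode the small subunit of Rubisco (*RBCS1A*, *RBCS1B*, *RBCS2B* and *RBCS3B*), Rubisco activase (*RCA*) and the LHCB1 chlorophyll a/b-binding proteins (*LHCB1.1*, *LHCB1.2* and *LHCB1.3*) of *Arabidopsis thaliana*. They were chosen by gene identifier from 27444 protein-coding genes of the 5 nuclear chromosomes, and each was read over its annotated gene body plus 500 bp on either side. In the TAIR10.1 annotation, *RBCS1A* (AT1G67090) lies alone at chr1:25048158-25049667 on the minus strand. The other small subunit genes form a tandem cluster on the minus strand of chromosome 5, with *RBCS3B* (AT5G38410) at chr5:15376988-15378642, *RBCS2B* (AT5G38420) at chr5:15380907-15382071 and *RBCS1B* (AT5G38430) at chr5:15383167-15385320. The *LHCB1* genes are neighbours on chromosome 1, with *LHCB1.2* (AT1G29910) at chr1:10472280-10473502 and *LHCB1.1* (AT1G29920) at chr1:10474656-10475969 on the minus strand and *LHCB1.3* (AT1G29930) at chr1:10477885-10479114 on the plus strand. *RCA* (AT2G39730) lies at chr2:16570746-16573692 on the minus strand.

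Rubisco fixes carbon dioxide in the chloroplast stroma. Its small subunit is encoded by nuclear genes and joins a large subunit made in the chloroplast, and Rubisco activase frees the active sites of bound sugar phosphates. LHCB1 proteins are the main members of the trimeric light-harvesting complex of photosystem II, which collects light and passes its energy to the reaction centre. All these genes are strongly transcribed in green leaves in the light. Active plant genes in general carry RNA polymerase II (Pol II), H3K4me3 and histone acetylation near the 5′ end, and H3K36 methylation along the gene.

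The data were lists of ChIP–seq peaks, the regions where the DNA bound by an antibody was enriched, from 104 libraries of leaves and 4 FLAG libraries of floral tissue. Plants were of the Col-0 ecotype, 4 to 5 weeks old, grown at 22 °C with 16 h of light and 8 h of dark. The ZF lines carry, in the late-flowering *fwa* epiallele, a transgene that fuses an effector protein to an artificial zinc finger (ZF) aimed at the *FWA* promoter. The lines were second-generation transgenics kept because they flowered early, and the transgene was driven by the *UBQ10* promoter or by the promoter of the effector gene, depending on the construct. Their control was *fwa* without a transgene, and the control fusion was EYFP-ZF, a fluorescent protein with no chromatin role. The effectors were the histone demethylase JMJ14, the polycomb-group proteins LHP1 and MSI1, the histone deacetylases HD2A, HD2B, HD2C and HDA6, the Pol II-associated factor ELF7 and the Pol II phosphatase CPL2. A second design compared the *elf7* mutant (*elf7-3*) with Col-0 wild type. Data sets are numbered as in the labels: 1 and 2 hold JMJ14-ZF, ELF7-ZF, LHP1-ZF and MSI1-ZF, 3 to 6 the HD2 fusions, 7 HDA6-ZF and MSI1-ZF, 8 and 9 Pol II in ELF7-ZF and HD2A-ZF, 10 and 11 Pol II in CPL2-ZF, 12 and 13 *elf7* and Col-0, and 14 and 15 EYFP-ZF, each with its own control. ELF7-ZF and *fwa* libraries of H3K36me2 and H3K36me3 lie in data sets 14 and 20. The controls of data sets 3 and 4 are labelled fwa1 and fwa2. The labels do not say how these differ, and both are counted as *fwa* lists here. The FLAG libraries are of plants that carry ELF7 with a FLAG tag under its own promoter in the *elf7-3* mutant (data sets 16 and 17), HD2A with a FLAG tag under its own promoter (data set 18), and a fusion labelled TRB1-ZF (data set 16).

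The near-identical copies decide where reads can be placed, because the authors kept reads with 1 mapping site and no mismatch. The coding sequences of the *LHCB1* genes, 804 bp each, were 95.6% to 96.4% identical, and the longest run of identical bases was 119 bp, between *LHCB1.1* and *LHCB1.3*. A stretch of 120 bases of coding exon 1, picked as the most alike of that length, shows how few bases can separate these copies. It is given 5′ to 3′ on the coding strand from chr1:10475134-10475253 (*LHCB1.1*), chr1:10472488-10472607 (*LHCB1.2*) and chr1:10478710-10478829 (*LHCB1.3*), with capitals for bases unlike *LHCB1.1*.
LHCB1.1: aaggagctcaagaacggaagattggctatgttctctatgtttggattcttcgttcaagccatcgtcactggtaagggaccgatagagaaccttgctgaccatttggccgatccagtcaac
LHCB1.2: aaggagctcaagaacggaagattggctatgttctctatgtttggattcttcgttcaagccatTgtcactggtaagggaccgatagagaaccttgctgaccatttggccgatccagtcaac
LHCB1.3: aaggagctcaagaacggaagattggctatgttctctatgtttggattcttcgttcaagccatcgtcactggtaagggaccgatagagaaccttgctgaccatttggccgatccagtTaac

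*LHCB1.2* and *LHCB1.3* each differ from *LHCB1.1* by 1 base in this stretch and from each other by 2. A read that falls between such bases has several exact homes, and the stated mapping rule would drop it. The reads themselves were not examined.

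Among the small subunit genes, *RBCS1A* was the most distant, with 87.7% to 90.1% identity of coding sequence to the tandem copies. Within the cluster *RBCS1B* and *RBCS2B* were 97.3% identical, *RBCS2B* and *RBCS3B* 94.3% and *RBCS1B* and *RBCS3B* 94.1%. The last pair nevertheless shared an unbroken identical run of 230 bp, the longest of any pair. The next 120 bases come from coding exon 3, at chr1:25048582-25048701 (*RBCS1A*), chr5:15384470-15384589 (*RBCS1B*), chr5:15381323-15381442 (*RBCS2B*) and chr5:15377621-15377740 (*RBCS3B*), with capitals for bases unlike *RBCS1A*. This stretch was picked because the tandem copies differ least from *RBCS1A* in it, among stretches of that length within 1 coding exon.
RBCS1A: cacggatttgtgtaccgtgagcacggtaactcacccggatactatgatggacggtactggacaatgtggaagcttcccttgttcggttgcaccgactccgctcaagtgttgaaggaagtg
RBCS1B: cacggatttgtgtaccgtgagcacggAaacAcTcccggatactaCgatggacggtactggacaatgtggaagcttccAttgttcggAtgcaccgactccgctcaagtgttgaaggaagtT
RBCS2B: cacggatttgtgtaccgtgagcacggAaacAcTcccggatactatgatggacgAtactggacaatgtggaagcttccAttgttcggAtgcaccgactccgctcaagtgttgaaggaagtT
RBCS3B: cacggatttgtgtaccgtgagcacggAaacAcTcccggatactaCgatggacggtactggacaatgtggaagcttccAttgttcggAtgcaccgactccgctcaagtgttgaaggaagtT

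Each tandem copy differs from *RBCS1A* by 7 bases here, *RBCS2B* differs from *RBCS1B* and *RBCS3B* by 2, and *RBCS1B* and *RBCS3B* are the same base for base. Upstream of the genes the likeness ended: the 300 bases before the annotated gene starts were 45.3% to 50.5% identical for every pair of copies, and a unique read can tell them apart there.

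Motifs known from the promoters of light-regulated plant genes, the G-box (CACGTG) and the I-box (GATAAG), and the CCA1-binding motif of *LHCB1* promoters (AANAATCT) were searched on both strands. Because the annotated starts lie 77 bp (*LHCB1.1*) to 418 bp (*RBCS1A*) before the start codon, the 300 bases before the start codon were searched. The I-box occurred there in all 4 small subunit genes, 2 times in *RBCS1A* and *RBCS1B* and 3 times in *RBCS2B* and *RBCS3B*, and 1 time in *LHCB1.3*, against 15.4% of all 27444 genes. A G-box was found in *RBCS1A*, *RBCS2B*, *RBCS3B* and *RCA*, against 6.28% of all genes. The CCA1-binding motif was found 1 time in *LHCB1.1* and 2 times in *LHCB1.3*, against 16.9% of all genes. In *RBCS1A*, *RBCS3B* and *RCA* the start codon lies 418, 336 and 347 bp after the annotated start. Their windows therefore lie wholly inside the annotated gene, and those of the other members include part of it. In the 250 bases before the annotated start, *RBCS1A*, *RBCS1B*, *RBCS3B* and *LHCB1.3* had none of the 3 motifs. There *RCA* had an I-box at 133 bp, and *LHCB1.1* the CCA1-binding motif at 78 bp (13.4% of all genes). *RBCS2B*, whose annotated start is 93 bp before its start codon, is the copy with both an I-box and a G-box in the 250 bases before its annotated start, chr5:15382072-15382321 on the minus strand; among all genes these windows held an I-box in 12.3% and a G-box in 6.49%. The sequence is given 5′ to 3′ with the motifs in capitals, the I-boxes 146, 115 and 94 bp and the G-box 123 bp before the annotated start, and the middle I-box reading as its reverse complement.
RBCS2B: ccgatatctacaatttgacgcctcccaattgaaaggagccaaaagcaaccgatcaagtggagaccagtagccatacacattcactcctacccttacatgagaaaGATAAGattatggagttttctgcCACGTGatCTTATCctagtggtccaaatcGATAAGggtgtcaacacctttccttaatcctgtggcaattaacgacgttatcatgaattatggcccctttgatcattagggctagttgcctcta

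A motif match is a description of the letters, and binding by a factor was not measured. Pol II peaks covered 100% of the *RBCS2B* gene body in all 18 Pol II lists.

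Reads were not available, so the depth of a library can be judged only by how many peaks it gave: 10188 to 29961 per list for the 90 lists of marks other than H3K27me3. The deposited fold is the enrichment at a summit, the highest point of a peak, and it depends on antibody and library. Each gene was therefore given the fold of its highest summit as a percentile of all peaks in the same list, where 100 is the strongest peak, and percentiles were compared between lists. No peak held the highest summit of 2 of the 8 genes in a list. The leaf genes *BCA1*, *PSBO1* and *PETE2* had a Pol II summit in all 18 Pol II lists, and the flower genes *AP1*, *AP3*, *PI*, *AG* and *SEP3* had one in 0 of 18. Other active marks were not absent from these flower genes. Each had an H3K4me3 summit in 3 of 10 lists, and an H3K27ac summit in 5 of 14 lists or, for *PI*, in 8. *SEP3* was highest among them, with median percentiles of 80.4 for H3K4me3 and 77.0 for H3K27ac. Of the root genes, *PYK10* had a Pol II summit in 12 of 18 lists (median percentile 39.6) and *CASP1* in 3 of 18. The correlation of percentiles between replicate lists of a group, across genes, was 0.337 to 0.903 (Spearman's rho, 48 pairs or groups, a description since genes are not independent).

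Pol II phosphorylated at serine 5 of its C-terminal domain, the form found from initiation into early elongation, was near the top of every list at the small subunit genes and *RCA*. In 18 of 18 lists each of these 5 genes had a summit, at percentiles of 95.8 to 99.9 for *RBCS1A* (median 99.2), 96.1 to 99.99 for *RBCS1B* (median 97.9), 95.9 to 99.7 for *RBCS2B* (median 98.6), 95 to 99.96 for *RBCS3B* (median 98.7) and 94.01 to 99.7 for *RCA* (median 98.0). These ranges overlap throughout, so no order among the 5 can be read from them. *RBCS1B* was the strongest peak of the whole list in Col-0 replicate 1 (rank 1 of 17391, fold 27.6), and *RBCS3B* was rank 7 in that list (fold 27.3). The highest fold at any of the 8 genes was 33.4, at *RBCS3B* in HD2A-ZF replicate 2. Pol II peaks spanned the genes: the median width was 2064 bp at *RBCS1A*, 2344 bp at *RBCS1B*, 1761 bp at *RBCS2B*, 1803 bp at *RBCS3B* and 3317 bp at *RCA*. The highest summit lay a median of 1029 bp from the annotated start in *RBCS1A* and 1956 bp in *RCA*, and nearer the start in *RBCS1B* (368 bp), *RBCS3B* (475 bp) and *RBCS2B* (670 bp).

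**Figure D1:**
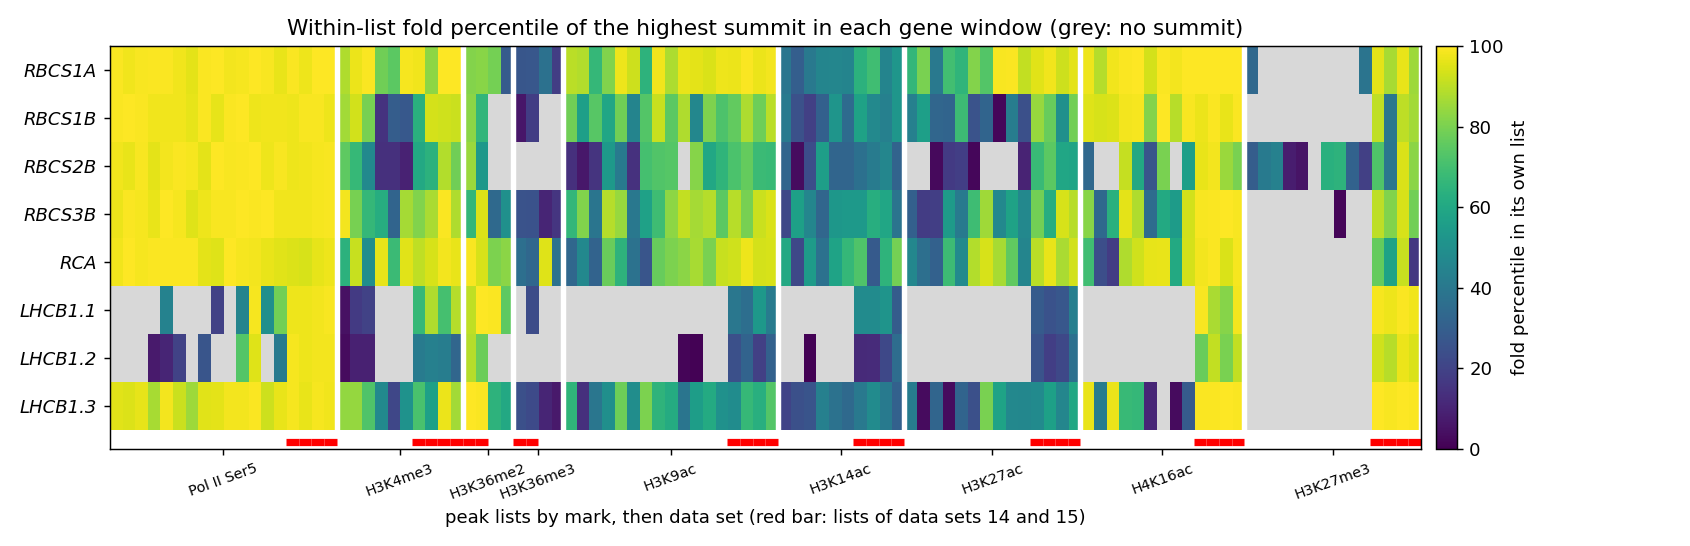
Percentile of the fold of the highest summit in each gene window (colour, 0 to 100) for the 8 genes (rows) in the 104 leaf lists (columns, ordered by mark and then data set); grey means no summit, and the red bar marks the lists of data sets 14 and 15. Pol II is at percentiles of 94.01 or more in every list at the *RBCS* genes and *RCA*, while *LHCB1.1* and *LHCB1.2* are grey in most lists outside data sets 14 and 15.

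Of the *LHCB1* genes, *LHCB1.3* had a Pol II summit in 18 of 18 lists at percentiles of 85.2 to 99.6 (median 96.4), with a median width of 1489 bp. *LHCB1.1* had one in 10 lists and *LHCB1.2* in 11. In data set 14, all 4 lists placed *LHCB1.1* at 97.5 to 99.2 and *LHCB1.2* at 97.6 to 98.8. Outside it, *LHCB1.1* had a summit in 6 of 14 lists and *LHCB1.2* in 7 of 14, and these included small peaks such as the 236 bp peak of *LHCB1.1* in CPL2-ZF replicate 2 (fold 2.33, percentile 19.3). The same gene thus had no Pol II peak in some data sets and one of the strongest in others.

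H3K4me3, a mark of the 5′ part of transcribed genes, was found at the small subunit genes, *RCA* and *LHCB1.3* in 10 of 10 lists and at *LHCB1.1* and *LHCB1.2* in 7. *RBCS1A* ranked highest, with percentiles of 74.9 to 99.8 (median 97.4), followed by *RCA* with 49.4 to 98.1 (median 92.8). *RBCS3B* ran from 32.1 to 99.2 (median 83.7), *RBCS1B* from 14.7 to 93.6 (median 82.8), *LHCB1.3* from 21.4 to 97.1 (median 71.8) and *RBCS2B* from 9.6 to 88.4 (median 62.4). These ranges overlap, and data set 2 holds the low end of each but that of *RCA*. There *RBCS1B* was at 27.4 in *fwa*, 14.7 in ELF7-ZF and 29.4 in JMJ14-ZF. *RBCS2B* was at 9.6, 13.8 and 14.1 in the same lists. *LHCB1.1* was at 19.6 in *fwa* of data set 1, without a summit in the 3 lists of data set 2, and at 67.1 to 88.8 in data set 14.

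H3K36me2, placed in the wake of elongating Pol II, had a summit at *RBCS1A*, *RBCS3B*, *RCA*, *LHCB1.1* and *LHCB1.3* in 4 of 4 lists and at *RBCS1B*, *RBCS2B* and *LHCB1.2* in the 2 lists of data set 14 alone. *RCA* had the widest domain, 1915 to 2755 bp, with a summit a median of 1986 bp from the start and percentiles of 80.4 to 99.0. H3K36me3 was low at these genes. *RBCS2B* and *LHCB1.2* had no H3K36me3 summit in any of the 4 lists, *RBCS1B* had one in 2 and *LHCB1.1* in 1. The percentiles were 17.98 to 37.2 at *RBCS1A*, 10.2 to 25.7 at *RBCS3B* and 7.0 to 24.4 at *LHCB1.3*. *RCA* was at 33.4, 36.6 and 37.9 in 3 lists and at 95.2 in ELF7-ZF replicate 2. Thus the genes with the strongest Pol II peaks stood in the lower part of the H3K36me3 lists, with that 1 exception at *RCA*.

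Histone acetylation opens chromatin and is removed by the deacetylases fused to ZF in this study. H3K9ac peaks were present at *RBCS1A*, *RBCS1B*, *RBCS3B*, *RCA* and *LHCB1.3* in 17 of 17 lists and at *RBCS2B* in 16. *RBCS1A* had a median percentile of 95.9 (64.5 to 99.3), *RBCS3B* 83.1, *RCA* 79.7, *RBCS1B* 75.9, *RBCS2B* 66.3 and *LHCB1.3* 61.1. The summit of *RBCS1A* lay a median of 1048 bp from its annotated start, that of *RBCS3B* 456 bp, of *RCA* 411 bp, of *LHCB1.3* 337 bp, of *RBCS1B* 283 bp and of *RBCS2B* 254 bp. H3K27ac gave the same first place to *RBCS1A* (median percentile 86.2, 40.4 to 99.5) and the second to *RCA* (median 81.2). *RBCS2B* had an H3K27ac summit in 9 of 14 lists, at a median percentile of 18.5 among them. H3K14ac was in the middle of the list at all these genes, with medians of 59.1 at *RCA*, 53.3 at *RBCS3B*, 45.3 at *RBCS1A*, 42.3 at *RBCS1B*, 35.99 at *LHCB1.3* and 32.7 at *RBCS2B*, over 10 lists. The methods give the same antibody catalogue number for H3K14ac and H3K27ac, so which antibody was used for which cannot be told from them.

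H4K16ac stood out for its strength at the small subunit genes. *RBCS1A* was at a percentile of 99.5 or more in all 5 *fwa* lists and both EYFP-ZF lists, and its lowest value was 88.7, in HD2B-ZF replicate 1. It was rank 2 of its list at best. *RBCS1B* ranged from 81.4 to 99.6 (median 97.2), *RCA* from 17.8 to 99.4 (median 93.6) and *RBCS3B* from 34.3 to 99.8 (median 87.9). Lowest again among the small subunit genes was *RBCS2B*, with a summit in 10 of 13 lists at 26.5 to 98.3 (median 79.9). *LHCB1.3* was at 99.3 to 99.7 in the 4 lists of data set 15 and at 3.1 to 96.9 in 8 of the 9 other lists.

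H3K27me3, the polycomb mark of silent genes, gave 2 different pictures. In the 10 lists of data sets 1 and 2 (10949 to 14912 peaks), 0 to 2 of the 8 genes had a summit. *RBCS2B* had one in 9 of these 10 lists, at percentiles of 5.1 to 64.8, *RBCS1A* in 2 and *RBCS3B* in 1. In the 4 lists of data set 14 (940 to 2199 peaks) all 8 genes had a summit, and *LHCB1.3* was at 99.2 to 99.8. Those 4 lists stood apart as a whole: only 7.23% to 32.1% of their peaks overlapped an H3K27me3 peak of *fwa* in data set 1, against 80.6% to 90.2% for the other lists, and 43.0% to 48.3% overlapped Pol II peaks at or above the percentile of 90 of *fwa* in data set 14, against 1.14% to 2.41%. The H3K27me3 summits of the 8 genes in data set 14 are therefore given as the lists hold them, and H3K27me3 is left out of the counts of lists with a summit and of the cover values that follow. The comparisons of lines with controls further on include it.

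Over the 90 lists of the other marks, *RBCS1A*, *RBCS3B* and *RCA* had a summit in 90, *LHCB1.3* in 89, *RBCS1B* in 86, *RBCS2B* in 75, *LHCB1.2* in 39 and *LHCB1.1* in 38. The gap lay between data sets. In the 28 lists of data sets 14 and 15, *LHCB1.1* had a summit in 27 and *LHCB1.2* in 26, and in the 62 other lists in 11 and 13. *LHCB1.3*, which shares the same coding sequence closely, had one in 61 of those 62. For *RBCS2B* the counts were 26 of 28 and 49 of 62, and for *RBCS1B* 28 of 28 and 58 of 62.

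Exact repeats were counted in each gene, and their part in the missing summits was not tested. Of all 50-base sequences that start in the gene, 80.3% occur once in the genome for *LHCB1.1*, 89.8% for *LHCB1.2* and 83.7% for *LHCB1.3*. For the small subunit genes the share was 82.5% (*RBCS3B*), 85.8% (*RBCS1B*), 87.2% (*RBCS2B*) and 100% (*RBCS1A*), and it was 100% for *RCA*. A read length of 50 is an assumption, as the length is not given in the sources used here. Near copies gave another order: a second genome copy within 5 mismatches was found for 76.1% of the 50-base sequences of *LHCB1.2*, 69.5% of *LHCB1.1*, 66.4% of *LHCB1.3*, 54.7% of *RBCS2B*, 47.3% of *RBCS3B*, 36.9% of *RBCS1B*, 19.7% of *RBCS1A* and 0% of *RCA*. This measure was chosen after the summits had been seen. *LHCB1.3* with 61 of 62 lists and *LHCB1.1* with 11 of 62 differ by little in it.

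**Figure D2:**
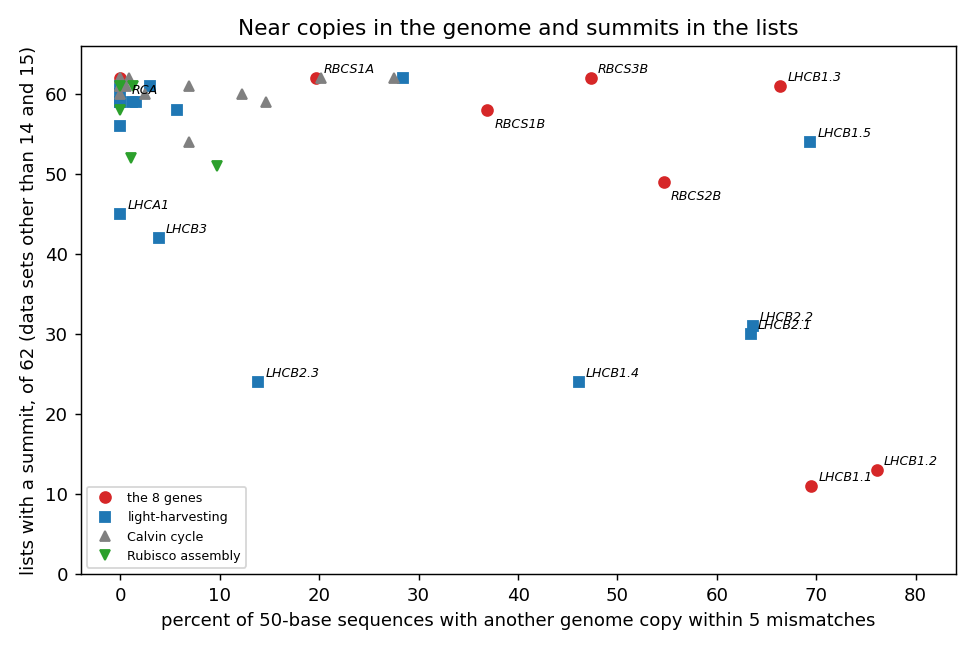
Each point is a gene: the x axis is the percent of its 50-base sequences that have another genome copy within 5 mismatches, and the y axis is the number of the 62 lists outside data sets 14 and 15 (H3K27me3 left out) with a summit in the gene window; colours and shapes give the 8 genes and the lists of other light-harvesting, Calvin cycle and Rubisco assembly genes. *LHCB1.1* (11 lists) and *LHCB1.2* (13) lie at the lower right, with *LHCB1.3* (61) far above them at a like share of near copies, and *LHCB2.3* (24) is low with a share of 13.9%.

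Some other light-harvesting genes of photosystem II showed a gap between the same data sets, and those named here were chosen after their counts had been seen. *LHCB1.4* had a summit in 24 of the 62 lists and in 26 of 28 of data sets 14 and 15, *LHCB2.1* in 30 and 28, *LHCB2.2* in 31 and 28, and *LHCB2.3* in 24 and 26. *LHCB2.3* has few near copies (13.9% within 5 mismatches and 0.782% within 2). *LHCA1*, with 0% within 5 mismatches, had a summit in 45 of 62 and 26 of 28 lists. *LHCB1.5*, with 69.4%, had a summit in 54 of 62, and *LHCB3* in 42 of 62 and 28 of 28. The part of near copies in these counts was not tested. The gap was not general: *LHCB4.1*, *LHCB4.2*, *LHCB4.3*, *LHCB5* and *LHCB6* had a summit in 58 to 61 of the 62 lists. In data sets 14 and 15 they had one in 24 to 28 of 28. Across the genome, the 396 genes with under 50% of their bases in a unique 50-base sequence had a summit in 14.6% to 32.6% of cases in the lists of data sets 7, 14 and 15 (40 lists, median 25%), in 12.6% to 16.9% in data set 13, in 24.2% in the H3K9ac list of HD2A-ZF in data set 6, and in 2.53% to 10.4% in the other 47 lists (median 7.32%). Data set 7 was thus as high as data sets 14 and 15 in this measure. In its 12 lists *LHCB1.1* had a summit in 0 and *LHCB1.2* in 3. In data set 12 both genes had a Pol II summit in both lists while the share was 2.78% to 3.28%. The presence of *LHCB1.1* and *LHCB1.2* peaks therefore moved with the data set, in some data sets together with the share of repeated genes and in others not, and the part of that share in it was not tested.

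Inside *RBCS1B* and *RBCS3B*, 1 block each is without any unique 50-base sequence. It spans 212 bp in *RBCS1B* (chr5:15384409-15384620, 700 to 911 bp from the start). In *RBCS3B* it spans 223 bp (chr5:15377549-15377771, 871 to 1093 bp from the start). In the 62 lists outside data sets 14 and 15, 56.8% of this block was under a peak in *RBCS1B*, against 72.9% of the 200 bp on either side, and the block was the less covered part in 25 lists and the more covered in 5. In *RBCS3B* the values were 61.7% and 76.5%, with 25 lists against 6. Of the lists with a peak on both sides, 16 of 45 had a gap over the block in *RBCS1B* and 17 of 46 in *RBCS3B*, in data sets 14 and 15 1 of 27 and 0 of 26. There the block was, on the contrary, 95.9% covered against 86.5% in *RBCS1B* and 98.9% against 90.04% in *RBCS3B*. A dip in cover thus lay over the bases that hold no unique 50-base sequence, in the 62 lists and not in the 28. The part of unique mapping in it was not tested with reads.

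It also depended on the mark. In the 18 Pol II lists the block and its sides were covered to 100% in both genes. In the 10 H3K27ac lists outside data set 15, the block was covered to 1.98% in *RBCS1B*, against 32.5% at its sides, and to 25.7% in *RBCS3B*, against 69.8%. The H3K27ac peak of *RBCS1B* with the highest summit had a median width of 415.5 bp in those 10 lists and 2039 bp in data set 15. The caller extends reads to the fragment length, so cover over a repeated base does not show that a read lay on it. Over the windows of all 8 genes together, 639 bases had no unique 50-base sequence, and they were more covered (median 76.1% over 90 lists) than the other bases (44.7%) of the gene bodies and flanks. The highest summit lay on such a base in 6 of 86 lists at *RBCS1B*, 6 of 90 at *RBCS3B*, 4 of 38 at *LHCB1.1* and 1 of 89 at *LHCB1.3*.

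**Figure D3:**
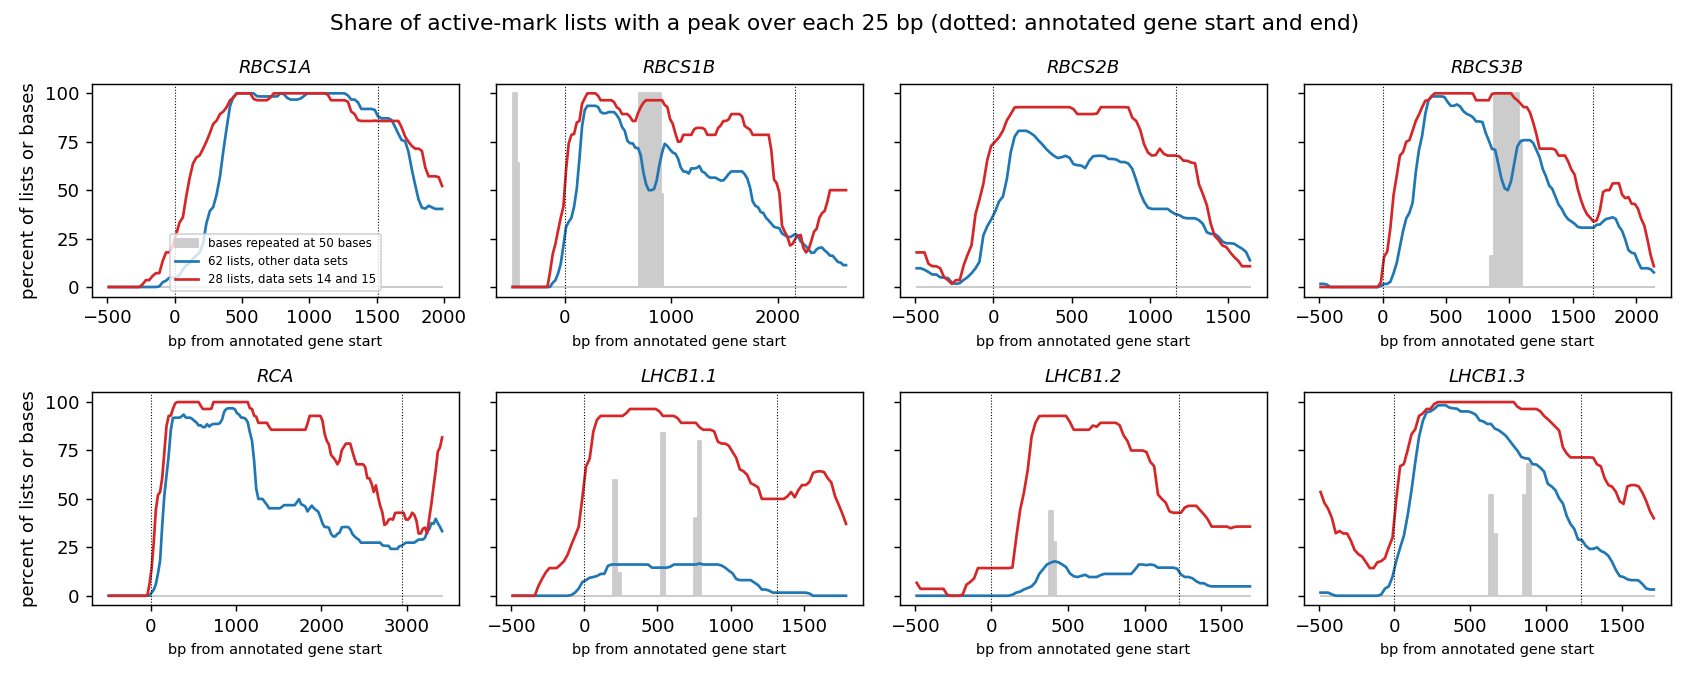
Percent of lists (H3K27me3 left out) with a peak over each 25 bp, against the distance in bp from the annotated gene start, for the 28 lists of data sets 14 and 15 (red) and the 62 other lists (blue); grey bars give the percent of bases without a unique 50-base sequence and dotted lines the gene ends. The blue line dips over the grey blocks of *RBCS1B* and *RBCS3B*, where 56.8% and 61.7% of the block is covered on average, and it is low over the whole of *LHCB1.1* and *LHCB1.2*.

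To ask whether the copies of a family differ in rank in control plants, *fwa* and Col-0 lists of Pol II, H3K9ac and H3K27ac were compared pairwise, with a gene without a summit set to percentile 0. Of 27 such comparisons (9 pairs and 3 marks), 0 passed an adjusted p of 0.05 (exact permutation of signs over lists, two-sided, Benjamini-Hochberg over the 27), and 12 had an unadjusted p under 0.05. The smallest p these designs allow is 0.00781 with 8 lists, 0.0156 with 7 and 0.0312 with 6. That leaves little room to pass after adjustment, so 0 calls do not show that the copies are alike. For Pol II, *RBCS1A* had a mean percentile of 99.0, *RBCS1B* 98.8, *RBCS2B* 98.5 and *RBCS3B* 98.8 over 8 lists, and the mean differences between copies, −0.29 to 0.48 percentile points, were smaller than their SDs of 1.02 to 1.62. For H3K27ac the mean percentiles were 85.7, 49.4, 27.1 and 63.8 over 6 lists. *RBCS2B* was below *RBCS1A* in 6 of 6 lists by 58.6 ± 26.1 points (SD; exact p = 0.0312, adjusted p = 0.0844) and below *RBCS3B* in 6 of 6 by 36.7 ± 11.5 points (exact p = 0.0312, adjusted p = 0.0844). For H3K9ac, *RBCS2B* was below *RBCS1B* in 7 of 7 lists by 14.9 ± 12.3 points (SD; exact p = 0.0156, adjusted p = 0.0844). *LHCB1.1* was below *LHCB1.3* in 7 of 8 Pol II lists (exact p = 0.0234, adjusted p = 0.0844), 7 of 7 H3K9ac lists and 6 of 6 H3K27ac lists, a difference that holds mostly lists where *LHCB1.1* has no summit.

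Each line was then compared with its control on the percentile scale, with the normal score of the rank as the value (limma, adjusted over all genes with a summit in every list of the comparison). In 30 comparisons, 0 of 164 values of the 8 genes and 0 of 347431 values of all genes passed an adjusted p of 0.05, which makes the background 0% in each comparison. Unadjusted, 14 of the 164 and 17525 of the 347431 values had p under 0.05. These counts, the simulations below and the limma values of single genes further on are of a fit without a block for the replicate number. In 19 of the 30 comparisons same-numbered lists share a data set. With that block 130 values of all genes were called, in 7 comparisons, and 0 of the 8 genes. A shift of 2 normal scores put into simulated lists was recovered in 90% of cases for Pol II in ELF7-ZF (7802 genes), 81% for H3K27ac in HD2A-ZF (14938 genes) and 22% for H4K16ac in HD2A-ZF (7272 genes), and a shift of 1 in 0% in each, so differences of that size were not detectable in these comparisons. Groups that did not overlap were counted beside the same share over all genes: every line list was below every control list for 40 of the 164 values (24.4%; 15.8% over all genes) and above for 11 (6.71%; 13.3% over all genes). A summit was present in every list of the line and none of the control for 1 of 206 values (0.708% over all genes), *LHCB1.2* for H3K9ac in MSI1-ZF at percentiles of 1.3 and 0.4. It was lost in that sense for 1 of 206 (1.31% over all genes), *RBCS2B* for H4K16ac in HD2C-ZF. With 1 line or control replicate left out, gains and losses together numbered 2 to 7. The p-values measure the spread between these lists, and nothing says whether replicates came from separate plants. Several comparisons share their *fwa* lists, namely ELF7-ZF and HD2A-ZF for Pol II, JMJ14-ZF and ELF7-ZF for H3K4me3, the fusions of data sets 1 and 2 for H3K27me3, HDA6-ZF and MSI1-ZF, and the HD2 fusions.

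H4K16ac in the HD2 fusions held 10 of those 40 lower values, at the small subunit genes and *RCA*. In the *fwa* lists *RBCS3B* was at percentiles of 95.9, 87.9 and 93.1. It was at 82.3 and 34.9 in HD2A-ZF, 34.3 and 60.8 in HD2B-ZF, and 63.3 and 55.0 in HD2C-ZF. All 6 fusion lists were thus below the 3 *fwa* lists. The differences in normal score were −1.19 (SE 0.62, limma adjusted p = 0.999), −1.53 (SE 0.59, adjusted p = 0.968) and −1.23 (SE 0.59, adjusted p = 0.999). In HD2A-ZF the difference was −1.85 without replicate 1 and −0.54 without replicate 2. *RBCS1A* was at 99.5, 99.7 and 99.99 in *fwa*. Its percentiles were 97.6 and 93.7 in HD2A-ZF, 88.7 and 99.5 in HD2B-ZF and 97.7 and 98.2 in HD2C-ZF, below every *fwa* list in each line. *RBCS2B* was at 91.2, 60.3 and 56.4 in *fwa* and at 34.0 and 26.5 in HD2A-ZF. It had no summit in either HD2C-ZF list, and in HD2B-ZF it had none in replicate 1 and one at 80.0 in replicate 2, so the HD2B-ZF lists fell on both sides of *fwa*. *RCA* was at 87.9, 92.9 and 93.6 in *fwa*, at 17.8 and 60.7 in HD2C-ZF (difference −1.71, SE 0.62, limma adjusted p = 0.999, and −1.12 without HD2C-ZF replicate 1), while HD2A-ZF (69.5 and 96.5) and HD2B-ZF (23.9 and 96.8) fell on both sides of *fwa*.

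Counted by line, every list was below every *fwa* list for *RBCS1A*, *RBCS1B*, *RBCS2B* and *RBCS3B*, 4 of the 6 tested, in HD2A-ZF (12.4% of all genes), for *RBCS1A* and *RBCS3B*, 2 of 4, in HD2B-ZF (12.6%), and for *RBCS1A*, *RBCS1B*, *RBCS3B* and *RCA*, 4 of 5, in HD2C-ZF (12%). The median difference of the tested members was −1.03, −0.98 and −0.99, against −0.13, −0.13 and −0.08 over all genes. The Calvin cycle genes tested had medians of −0.43 (9 of 13 below 0), −0.41 (8 of 10) and −0.58 (9 of 12) in the same comparisons, and the other light-harvesting genes −0.20, −0.08 and −0.43 (3 of 5 below 0 in each). In the EYFP-ZF control fusion 0 of 8 were below (16.3%), and the median difference was 0.10, against 0.01. These 3 HD2 comparisons use the same 3 *fwa* lists, and the lists differ in peak number: in data set 3, HD2A-ZF had 10188, HD2B-ZF 10659, HD2C-ZF 14703 and *fwa* 12389 and 13357, and in data set 5 the fusions had 11472 to 14016 and *fwa* 17474. The part of peak number in these percentiles was not tested.

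**Figure D4:**
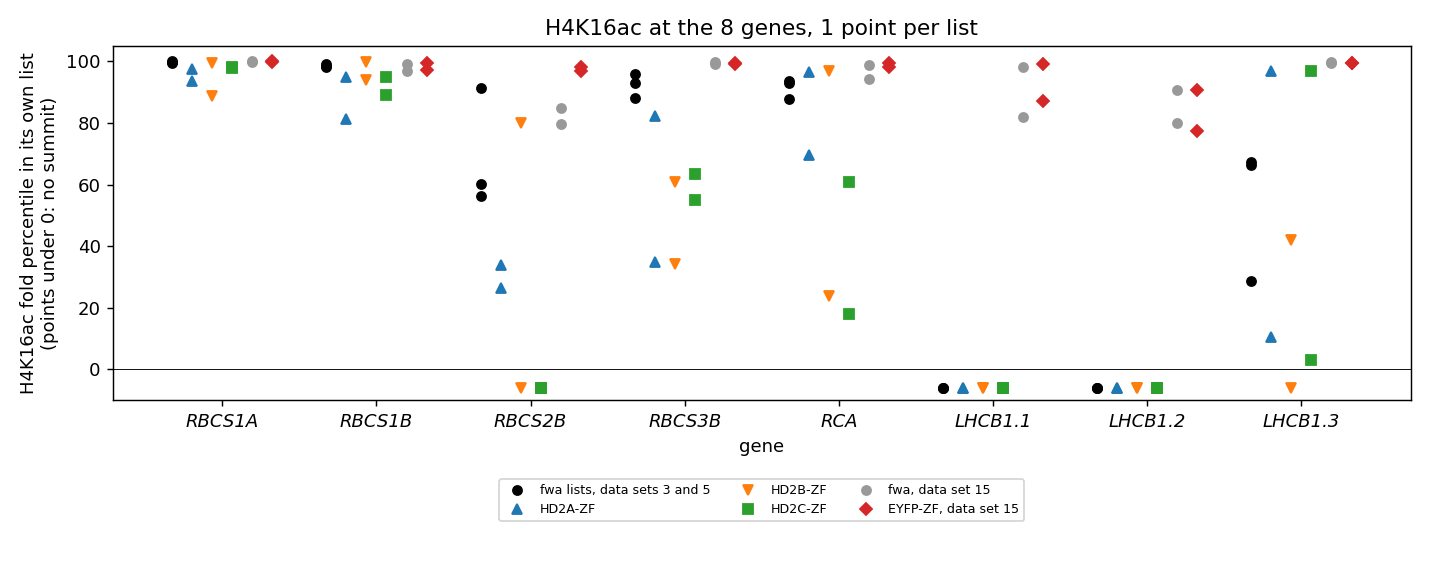
H4K16ac fold percentile within its own list (y axis) of the highest summit at each of the 8 genes (x axis), 1 point per list, by line; points under 0 mean no summit. At *RBCS3B* the 6 lists of the HD2 fusions lie between 34.3 and 82.3, below the *fwa* lists of data sets 3 and 5 (87.9 to 95.9), while in data set 15 *fwa* and EYFP-ZF are at 99.1 to 99.8.

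The other acetyl marks did not follow H4K16ac at every gene. For H3K9ac, *RBCS2B* was at 14.03 and 14.3 in HD2A-ZF against 54.2, 41.3 and 70.3 in *fwa*, which do not overlap (difference −1.21, SE 0.35, unadjusted p = 0.00511, limma adjusted p = 0.972). It was the only 1 of 6 members with all HD2A-ZF lists below *fwa* (9.21% of all genes). It was at 6.5 in the HD2B-ZF list and 15.2 in the HD2C-ZF list, of which there is 1 each and no test. *RBCS1A* in HD2A-ZF was at 89.5 and 92.3, inside the *fwa* range of 64.5 to 97.6. *RBCS2B* was lower in HD2A-ZF than in *fwa* within both data sets, with 1 HD2A-ZF list in each. The *fwa* and HD2A-ZF lists of data set 6 differ in the share of repeated genes with a summit (8.33% and 24.2%). All H3K9ac lists of data set 3, those of HD2B-ZF and HD2C-ZF included, span 7.83% to 9.60%. The part of that share in these percentiles was not tested. For H3K27ac, *RBCS2B* had a summit in 3 of 4 *fwa* lists (9.97 to 18.5) and in 2 of 6 HD2 lists (1.8 and 2.4), and *RBCS1A* overlapped throughout: 65.5 to 99.5 in *fwa*, 66.3 and 81.4 in HD2A-ZF, 79.9 and 73.3 in HD2B-ZF and 40.4 and 98.9 in HD2C-ZF.

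HDA6-ZF and MSI1-ZF share the *fwa* lists of data set 7. For H3K14ac, *RBCS1A*, *RBCS2B* and *LHCB1.3* were below in HDA6-ZF, 3 of 6 (22.9% of all genes), with *RBCS1A* at 39.1 and 29.7 against 46.0 and 45.3. In MSI1-ZF these were *RBCS1B*, *RBCS3B* and *RCA*, 3 of 6 (22.1%), with *RCA* at 55.0 and 37.5 against 57.9 and 66.5. For H3K9ac in HDA6-ZF, *RBCS2B* (72.9 and 73.7 against 59.98 and 65.3) and *LHCB1.3* (65.1 and 61.6 against 61.1 and 50.5) were above *fwa*, 2 of 6 (18.6% of all genes). Both were below *fwa* in H3K14ac, with *LHCB1.3* at 19.9 and 24.5 against 37.8 and 34.2.

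For H3K4me3, *RBCS1A* was the only member with both lists of a demethylase or ELF7 fusion below both *fwa* lists. It was at 97.1 and 74.9 in JMJ14-ZF and at 88.0 and 78.4 in ELF7-ZF, against 99.3 and 98.7 in *fwa*. That is 1 of 6 members in each (13.9% of all genes in both), and the difference in ELF7-ZF was −1.35 (SE 0.46, unadjusted p = 0.0193, limma adjusted p = 0.999997). On the raw percentile it was −15.8 points (limma unadjusted p = 0.245). In the control fusion EYFP-ZF, *RBCS1A* (97.8 and 83.1 against 99.8 and 99.6), *RBCS2B* (60.4 and 64.3 against 88.4 and 78.2), *RBCS3B*, *LHCB1.3* (71.4 and 56.7 against 97.1 and 86.0) and *RCA* were below *fwa*, 5 of 8 (18.4% of all genes), with a median difference of −0.60 against −0.02 over all genes. None of these passed the adjusted test (limma adjusted p of 0.808 for *RBCS1A*, *RBCS2B* and *LHCB1.3*).

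Pol II percentiles at the small subunit genes and *RCA* lay close to the top of the scale in every line, so the percentile leaves little room to show a difference there. In EYFP-ZF, *RBCS1A*, *RBCS2B*, *RBCS3B*, *LHCB1.1* and *RCA* were below *fwa* in both lists, 5 of 8 (24.3% of all genes). *RBCS1A* was at 99.4 and 97.3 against 99.9 and 99.8, a difference of −0.78 in normal score (SE 0.25, unadjusted p = 0.0274, limma adjusted p = 0.828), which was −0.48 without EYFP-ZF replicate 2. The normal score stretches differences at the top of the scale. On the raw percentile this difference was −1.49 points (limma unadjusted p = 0.611). In *elf7* against Col-0, *LHCB1.1* was the single gene of 7 above in both lists (7.72% of all genes). It was at 98.5 and 78.6 in *elf7* and at 45.0 and 49.8 in Col-0, a difference of 1.55 (SE 0.51, unadjusted p = 0.0177, limma adjusted p = 0.944). Without *elf7* replicate 1 the difference was 0.86 and without replicate 2 it was 2.25. Within data set 12 its fold was 14.9 in *elf7* (rank 257 of 17578) and 2.76 in Col-0 (rank 9563 of 17391), and within data set 13 it was 3.92 (rank 2270 of 10611) and 2.66 (rank 7489 of 14911). *LHCB1.2* was at 95.2 and 41.0 in *elf7*, and at 73.3 and without a summit in Col-0, higher in *elf7* within both data sets. *LHCB1.3* was at 99.6 and 96.6 against 98.3 and 92.4, also higher within both, though its Col-0 value of data set 12 lies above its *elf7* value of data set 13. The other light-harvesting genes tested in *elf7* had a median difference of 0.61 (14 of 16 above 0, 0 called). The median was −0.0045 for the 7 members tested and −0.21 over all genes, so a higher percentile was not particular to the *LHCB1* genes. In data sets 8 and 9, *LHCB1.1* had no Pol II summit in any list of ELF7-ZF or *fwa*.

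H3K27me3 at *RBCS2B* was at 43.8 and 64.8 in LHP1-ZF and at 41.1 and 63.7 in JMJ14-ZF, against 5.1 and 19.0 in *fwa*. Both fusions were above *fwa* in both lists, as 1 of 1 member tested in each (14% and 14.9% of all genes), with differences of 1.37 (SE 0.52, limma adjusted p = 0.838) and 1.32 (SE 0.52, adjusted p = 0.957). In MSI1-ZF the values were 7.8 and 31.4, each above *fwa* of its own data set but overlapping across the 2 data sets. ELF7-ZF had a summit in 1 of 2 lists.

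In the 4 FLAG lists, from flower buds, the ELF7-FLAG protein covered all 8 genes in replicate 1, which holds positions only, between 36.1% of *LHCB1.3* and 95.5% of *RBCS2B*. In replicate 2, *RBCS3B* was the strongest of 27778 peaks (fold 18.3), *RBCS1A* was at a percentile of 99.7, *RBCS1B* at 99.5, *RBCS2B* and *RCA* at 99.2 and *LHCB1.3* at 96.1. *LHCB1.2* was at 32.2 and *LHCB1.1* had no peak. The HD2A-FLAG list, with 415 peaks in all, had no peak at any of the 8 genes. The list labelled TRB1-ZF (22456 peaks) had a peak at 1 of them, *LHCB1.1* (chr1:10475367-10475679, fold 1.96, percentile 8.07). The methods speak of a FLAG-ZF library, and whether this list is that one is not certain. The peak is under the 4-fold minimum that the methods set for ZF off-target sites.

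Of the lists of related genes, the 17 other light-harvesting genes gave 322 values over the 30 comparisons, of which 0 were called, 27 had an unadjusted p under 0.05 (8.39%), 190 were below and 132 above 0 in normal score. The 15 Calvin cycle genes gave 352 values with 0 called, 27 with p under 0.05 (7.67%), and 230 below against 122 above. For the 5 Rubisco assembly genes the counts were 107 values, 0 called, 8 with p under 0.05 (7.48%), and 49 below against 58 above. For the 8 genes described here the counts were 14 of 164 (8.54%), with 100 below and 64 above. Comparisons that share *fwa* lists are counted together here, so the counts are a description.

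The genes whose percentiles were most like those of a member were found by the mean absolute difference in percentile over the 90 lists, with no summit set to 0. *LHCB1.1* was nearest to *LHCB1.2* (9.51 points) and *LHCB2.1* (9.91 points). *LHCB1.2* was nearest to *LHCB1.4* (7.72 points). *LHCB1.1* and *LHCB1.2* had a summit in 38 and 39 of the 90 lists. Lists in which both genes of a pair lack one add 0 to these distances. *LHCB1.3* was nearest to *CCR1* (14.9 points) and *MTO3* (15.05 points), and neither of its near-identical copies came closer. *RBCS1A* was nearest to AT4G05070 and AT4G05071 (7.34 points), whose gene models overlap. *RBCS1B* was nearest to *ECS1* (10.5 points), *RBCS2B* to AT3G18773 (13.4 points), *RBCS3B* to *OXS3* (12.2 points) and *RCA* to *BRG3* (13.1 points).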

How the data were processed

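Chromatin from leaves (104 lists) and floral tissue (4 FLAG lists) was analysed by ChIP–seq. Per the paper's methods and the submitters' processing notes, the authors trimmed reads, mapped them to TAIR10 with Bowtie2 (2.1.0), keeping 1 mapping site and 0 mismatches, used Samtools (1.9) to drop duplicate reads, and made 1 peak list per library with MACS2 (2.1.1). For FLAG-ZF, *fwa* was the stated control, and peaks frequent in Col-0 FLAG were removed. The deposited lists hold a fold enrichment (a ratio), deposited −log10 p-value and −log10 q-value columns and a deposited score, which was not used. Bisulfite PCR files were not used. Read depth is unknown; the number of peaks stands in for it.

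Gene models and sequences came from RefSeq TAIR10.1, and all peak ends lie within its chromosome lengths. Each gene took the highest summit within its body and 500 bp on either side, and its fold percentile within the list. Normal scores of ranks were compared with limma (3.58.1, R 4.3.3), Benjamini-Hochberg over all genes with a summit in every list of a comparison, and tested on simulated data with 200 altered genes. Copies were compared by exact sign-flip permutation (scipy 1.17.1). Sequences of 50 bases were counted in the nuclear, plastid and mitochondrial genome, and near copies were counted with Python (3.11.15).

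Same-numbered lists share a data set in 19 comparisons, where the correlation of their deviations was 0.104 to 0.426; in the other 11, within 1 data set, it was −0.04 to 0.06. All 8 members are named. Of the pathway lists the rule names called genes only, of which there were 0. The other light-harvesting genes in the text were named after their counts had been seen. Per member the rule takes the 2 genes of most similar percentile. The members and lists were chosen with earlier results of these data known. Alternatives were the replicate block, the raw percentile, other windows, any overlap, −log10 q of at least 10, the lowest rank for genes without a summit, other sequence lengths, and leaving out each replicate.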

Additional observations from a re-analysis of the deposited data

How the results depend on the processing

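With the replicate block, the number of member values called in line against control was 0, as without it, and it was 0 under every other alternative run for that comparison. Over all genes the block gave 130 calls in 7 of 30 comparisons, against 0 without it. The other settings gave 0 calls with the raw percentile or the gene body alone, 2 with 1000 bp on either side, 8 with any overlap, 26 with a −log10 q of at least 10, and 0 to 26 with 1 replicate left out. Setting genes without a summit to the lowest rank gave 2543 calls in 12 comparisons, none a member. The count of members gained or lost was 2, with 7 at a −log10 q of at least 10 (0 gained, 7 lost) and 2 to 7 with 1 replicate left out. Between copies 0 of 27 comparisons passed under every setting run. The few lists per mark leave little room to pass after adjustment, so this does not show that the copies are alike. The difference in cover between repeated and unique bases, taken within each list, had a median of 18.9 percentage points (16.6 to 30.7 over the sequence lengths and thresholds run).

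The lists limit what can be seen: peaks have no read counts, folds are comparable within a list only, and a gene without a summit has no value. With 2 lists against 2, an exact permutation test cannot give a p under 0.33. A shift of 1 normal score was not recovered in simulated lists, so a missing call does not show that values are alike.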
